A study of Mus musculus with 8 samples.

Results

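The respiratory chain and ATP synthase genes of the nucleus were followed on 8 one-colour Agilent arrays of mouse thyroid RNA. Members were taken by gene name alone: names that begin with Ndufa, Ndufb, Ndufc, Ndufs, Ndufv, Uqcr or Atp5, cytochrome c oxidase names in the Cox series, and Sdha, Sdhb, Sdhc, Sdhd and Cyc1. They comprised 132 probes for 88 genes, of 55681 probes for 34797 names on the array. By complex, 38 genes were assigned to complex I, 4 to complex II, 9 to complex III, 9 to complex IV and 15 to complex V (the ATP synthase), with 7 assembly or accessory factors, 3 muscle isoforms and 3 testis isoforms set apart. Cox4i1 and Cox4i2 are spelled outside the rule and were read separately.

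The thyroids came from female Balb/c mice 8 weeks of age. The exposed group was given 99mTcO4-, with 30 Gy absorbed by the gland. It is a tracer that thyroid cells take up through the iodide symporter. RNA was taken 24 hours after administration. Controls are called untreated in one passage of the study and saline-treated in another. There were 4 biological replicates per condition, the controls numbered 1 to 4 and the exposed thyroids named S539, S588, S589 and S590. The arrays were used to describe molecular events that go with the reduced tracer uptake of exposed thyroids. The 8 arrays shared 1 slide and 1 scan, and because exposed samples held one set of slide positions and controls the other set, an array's position cannot be told apart from its group.

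The respiratory chain sits in the inner mitochondrial membrane. Complexes I and II pass electrons from NADH and succinate to ubiquinone, complex III passes them to cytochrome c, and complex IV to oxygen. Complexes I, III and IV pump protons, and complex V uses the resulting gradient to make ATP. Most subunits are encoded in the nucleus, and several subunits of complex IV have tissue isoforms: Cox6a2, Cox7a1 and Cox8b are known from heart and skeletal muscle and, for Cox7a1 and Cox8b, brown fat, whereas Cox6b2, Cox7b2 and Cox8c are known from testis. In the thyroid, oncocytic cells are known for their accumulation of mitochondria.

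Each probe has 60 bases, and the stretches that bear on the results below are shown as the array files list them. The Cox6b2 probe lies at chr7:4703488-4703547 (mm9, minus strand) and shared no run of 20 bases with any other probe, nor did that of Cox6b1. The probes of Atp5g1 are at chr11:95934315-95934374 (RefSeq transcript) and chr11:95930317-95930376 (Ensembl transcript), both mm9 and minus strand. Capitals mark a run of 20 bases, positions 41 to 60, that 8 probes under other names also held.
Cox6b2 probe, bases 1 to 30: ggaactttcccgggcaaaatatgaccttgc
Cox6b1 probe, bases 1 to 30: aggagtcaggatggctgaagacatcaagac
Atp5g1 RefSeq probe, bases 31 to 60: tttaccattaAACAACAACAACAACAACAA
Atp5g1 Ensembl probe, bases 1 to 30: tttcaattattaaaagctttaagggctggc

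Promoter windows, from 250 bases before to 50 bases after the transcription start, were read from RefSeq (GRCm38.p6). The windows of Cox6b2 (chr7:4753045-4753344, minus strand) and its general partner Cox6b1 (chr7:30626065-30626364, minus strand) are shown because only one of the pair was called, and that of the complex I core subunit Ndufs7 (chr10:80249199-80249498, plus strand) because it holds the YY1 motif. Capitals mark the motif matches described with the promoter results.
Cox6b2: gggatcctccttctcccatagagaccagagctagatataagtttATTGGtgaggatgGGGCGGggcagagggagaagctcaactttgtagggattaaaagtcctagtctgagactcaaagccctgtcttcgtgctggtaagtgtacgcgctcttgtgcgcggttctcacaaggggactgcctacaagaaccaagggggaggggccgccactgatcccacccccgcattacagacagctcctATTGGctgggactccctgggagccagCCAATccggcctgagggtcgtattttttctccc
Cox6b1: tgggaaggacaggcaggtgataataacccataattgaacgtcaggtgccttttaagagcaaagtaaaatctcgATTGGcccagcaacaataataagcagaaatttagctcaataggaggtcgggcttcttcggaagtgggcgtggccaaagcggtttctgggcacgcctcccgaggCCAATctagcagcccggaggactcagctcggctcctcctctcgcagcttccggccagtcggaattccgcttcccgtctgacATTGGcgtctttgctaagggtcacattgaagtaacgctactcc
Ndufs7: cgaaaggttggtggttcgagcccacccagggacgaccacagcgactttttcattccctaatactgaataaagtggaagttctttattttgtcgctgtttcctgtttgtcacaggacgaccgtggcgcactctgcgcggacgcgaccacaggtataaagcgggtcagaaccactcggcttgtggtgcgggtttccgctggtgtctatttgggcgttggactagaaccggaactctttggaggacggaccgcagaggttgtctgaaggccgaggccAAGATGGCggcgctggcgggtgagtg

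Signals are given as log2 of the background-subtracted spot signal after quantile normalization, and each gene was read by its probe of highest mean signal. Of the members, 130 of 132 probes and 86 of 88 genes were well above background on all 8 arrays. The share of all spots above background was 60.5% to 77.3% per array, lowest on control 4, and no spot was saturated. All 8 thyrocyte markers measured were above background on every array, with 2 above and 6 below 0 (median -0.47) and 0 called. Their mean centred log2 signal was -0.22, 0.44, 0.65 and -0.04 in controls 1 to 4, and -0.23 to -0.18 in exposed thyroids. As a check of the exposure 6 p53 targets were read. Cdkn1a, Mdm2, Bax and Phlda3 were called higher by limma, and Ccng1 and Fdxr were not called. All 6 lay above 0, from 0.19 to 3.83 (median 1.89). For 5 of the 6 the exposed and control arrays did not overlap, so Ccng1 or Fdxr was among those 5. An unadjusted limma p under 0.05 was also found for 5. The study had already named Cdkn1a, Mdm2 and Bax from these same arrays, so the check is not independent. Its p53 signalling list of modulated genes also held Ccng1, which was not called here.

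The 8 thymocyte markers set controls 1 and 2 apart from the other arrays. Their score, the mean of the genes' centred log2 signals, was 3.50 in control 1 and 2.58 in control 2, against -1.44 to -0.11 on the remaining 6 arrays. Their summed signal was 5997 to 68673 in controls and 6181 to 10136 in exposed thyroids, and 4 of the 8 were above background on every array. All 8 lay below 0 in exposed against control thyroids (median -1.82), and 0 were called by limma. Lck, the T cell kinase among them, gave 14.65 and 13.82 in controls 1 and 2 and 10.45 to 11.71 elsewhere. Values without both controls, an alternative chosen after seeing the data, are given beside the results below. The part of thymus tissue in the member values was not tested.

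Only 1 of the 132 member probes was called at an adjusted p of 0.05 (limma, adjusted over all probes): Cox6b2, a testis isoform of the subunit that bridges the monomers of dimeric cytochrome c oxidase. Its log2 signal was 10.43, 10.31, 10.21 and 10.01 in controls 1 to 4, and 14.94 in S539, 14.48 in S588, 14.18 in S589 and 14.68 in S590. The groups did not overlap, and every exposed thyroid lay over 3 log2 units above every control. The difference was 4.33 (SE 0.19, 95% interval 3.88 to 4.78), a 20.1-fold rise with a limma adjusted p of 0.00125, ranking 1 of all probes by p. Without controls 1 and 2 it remained the 1 member probe called, at 4.46 (limma adjusted p = 0.0308). In bulk thyroid RNA, fewer cells of a type and less RNA per cell, or more of either, cannot be told apart.

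Across the array 0.781% of probes were called (435), 0.587% higher and 0.194% lower in exposed thyroids, so 1 member of 132 was near the background share. Among the 31039 probes well above background on all 8 arrays the share was 1.1%. No member was called lower. At an unadjusted p of 0.05, 4 member probes (3.03%) and 2 genes passed, against 12.2% of all probes. The groups were apart, with all exposed arrays on one side of all controls, for 3 member probes and 2 genes (2.27%), against 9.11% of all probes and 11.4% of those above background. These were Cox6b2 and Ndufaf3, a complex I assembly factor chosen for mention after its values were seen, which ran from 11.47 to 11.65 in controls and 11.21 to 11.41 in exposed thyroids, a difference of -0.18 (limma adjusted p = 0.57). The count of such genes was 4 without control 3 or S589, 5 without control 4 or S590, and 3 without controls 1 and 2. Fewer arrays separate more easily by construction, and no share over all probes is given for these reduced sets.

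The typical member differed little between groups. The median absolute log2 difference was 0.116 over member probes, against 0.276 over all probes and 0.218 over those above background. The median SE was smaller too, 0.18 over the 88 genes against 0.28 over all probes and 0.21 over those above background. The part of this in the smaller differences was not tested. The median signed difference over the 88 genes was -0.039, with 38 above and 50 below 0, against 0.0077 over all probes. For 79 of 88 genes the difference lay within 0.25 of 0. The 95% interval stayed within 1 log2 unit of 0 for 84 genes and within 0.5 for 36. The 4 genes outside the wider bound were Cox6b2, Cox6a2, Atp5g1 and Cox8c, the last read by a probe above background on 1 array.

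**Figure D1:**
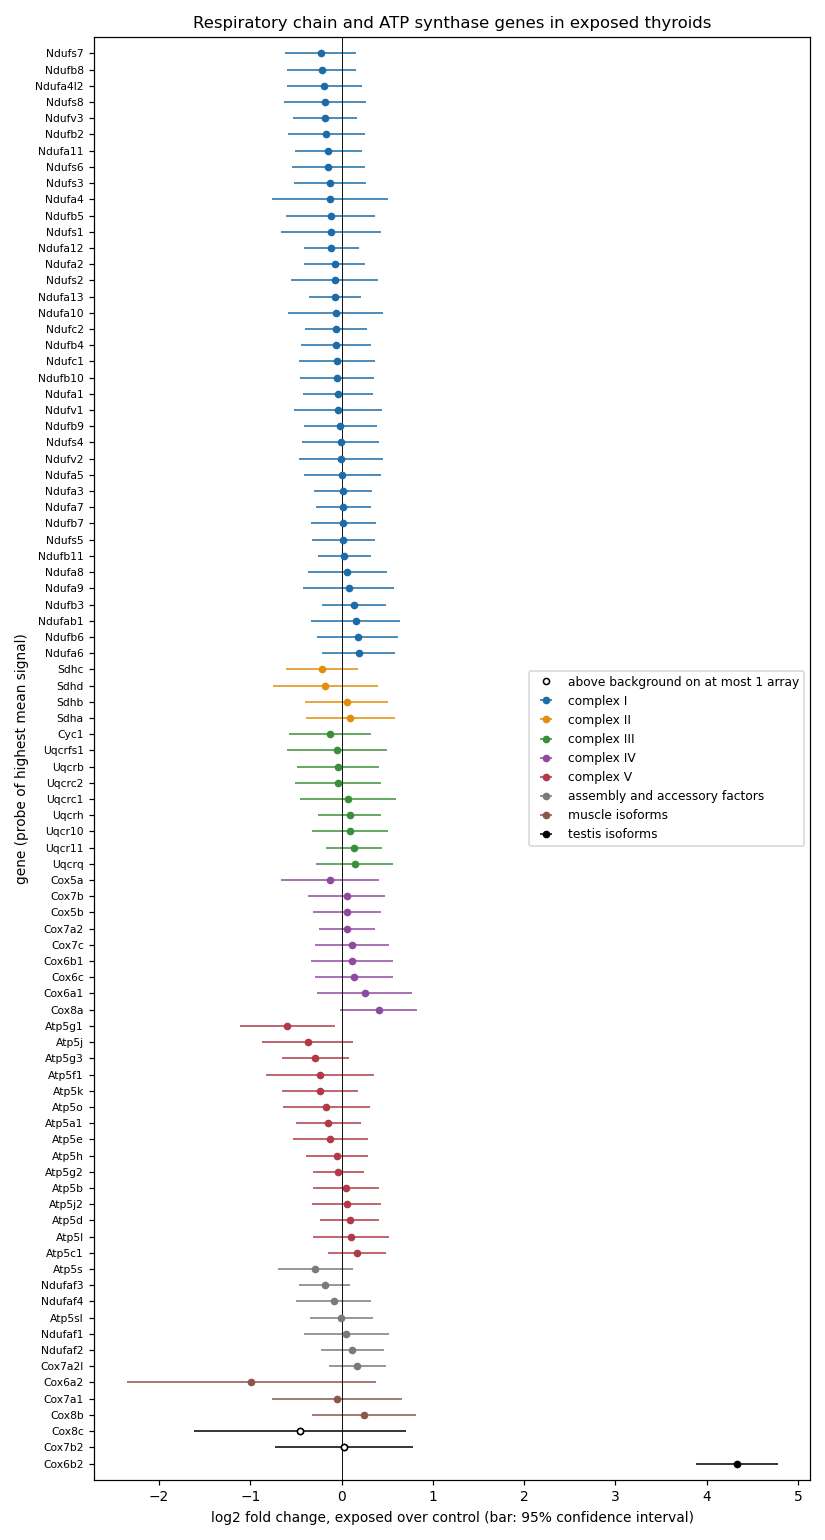
Log2 fold change, exposed over control, of each of the 88 genes (horizontal axis, log2; bars are 95% confidence intervals from limma), grouped by complex. Cox6b2 at 4.33 is the one point far from 0; all others lie between -0.99 and 0.41, and the open points, Cox7b2 and Cox8c, are probes above background on at most 1 array.

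The isoforms of complex IV were each set beside a general partner. Cox6b1, the general form of the same subunit as Cox6b2, gave 13.61, 13.25, 13.05 and 13.65 in controls and 13.27, 13.73, 13.69 and 13.36 in exposed thyroids, and the groups overlapped. Its difference was 0.12 (SE 0.19, 95% interval -0.33 to 0.57, limma adjusted p = 0.83). The difference Cox6b2 minus Cox6b1, taken within each array, was higher in exposed thyroids by 4.21 on the log2 scale, an unequal change with an exact permutation p of 0.0286, the smallest that 70 assignments allow, and 0.2 after adjustment over the 7 isoform pairs. Of the other pairs, 2 held an isoform at background and are given no difference. In the remaining 4, Ndufa4l2 beside Ndufa4 among them, isoform minus partner differed between groups by -1.24 to -0.07. Their exact permutation p ran from 0.17 to 0.89, so no unequal change was shown.

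The other testis isoforms were at or near background. Cox7b2 was well above background on 0 of 8 arrays, and Cox8c on 1, so no fold is given for either. Cox7b2 gave 3.06 to 3.70 in controls and 2.95 to 4.31 in exposed thyroids, and Cox8c 3.54 to 5.56 and 3.26 to 4.68. Of 10 male germ cell markers, 0 were called, 4 were above background on all arrays and Odf1 on none. Their summed signal was 862 to 2097 in controls and 1170 to 1955 in exposed thyroids, and so overlapped while Cox6b2 did not.

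The nearest genes on either side of Cox6b2 with a matched probe were Suv420h2 (now Kmt5c) and Tmem150b, and Fam71e2 and Il11, and none was called. Il11, a cytokine, had groups that did not overlap, with a difference of 0.87 (SE 0.20, limma adjusted p = 0.13). Suv420h2 differed by 0.34 (limma adjusted p = 0.45), with overlapping groups. Tmem150b and Fam71e2 were each well above background on 1 control and 3 exposed arrays, and no fold is given for either.

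**Figure D2:**
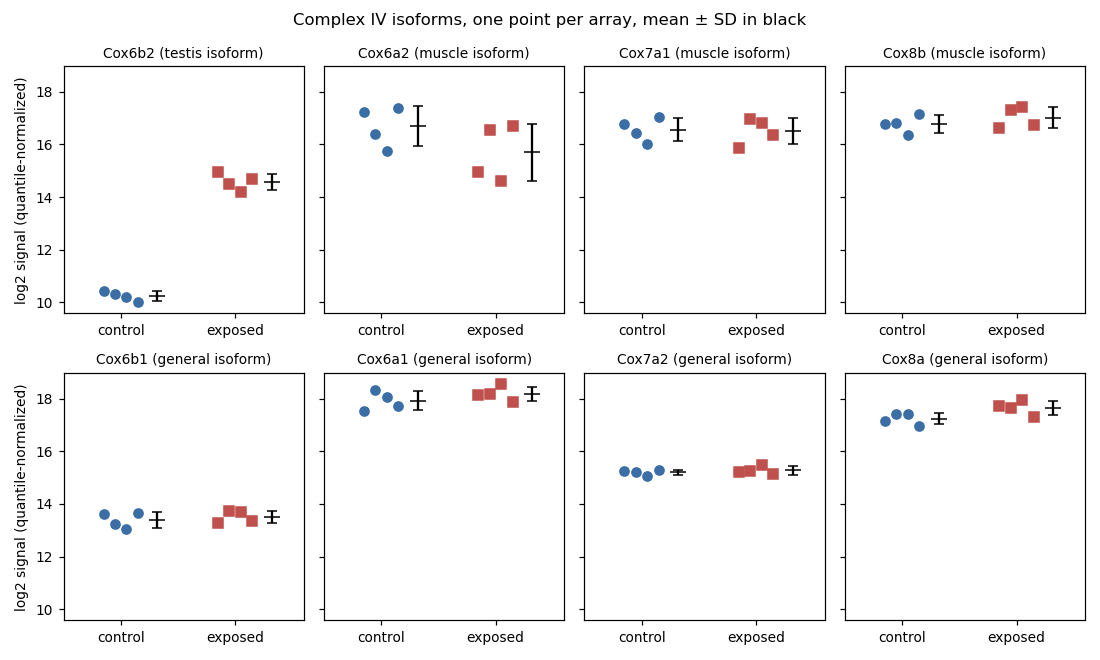
Quantile-normalized log2 signal of testis, muscle and general isoforms of complex IV, 1 point per array (circles control, squares exposed) with mean and SD in black. Cox6b2 separates the groups completely; the other 7 genes overlap.

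The muscle isoforms did not pass the test. Cox6a2 gave 17.24, 16.40, 15.76 and 17.37 in controls and 14.94 in S539, 16.56 in S588, 14.61 in S589 and 16.72 in S590, a difference of -0.99 (SE 0.59, limma adjusted p = 0.53). S539 and S589 were lowest, and the other exposed thyroids lay within the control range. Cox7a1 gave 16.01 to 17.03 in controls and 15.87 to 16.96 in exposed thyroids, a difference of -0.05. Cox8b gave 16.35 to 17.15 in controls and 16.63 to 17.41 in exposed thyroids, a difference of 0.25.

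Markers of tissues where these isoforms are known were read on the same arrays. All 13 skeletal muscle markers were above background on every array, 12 of 13 lay below 0, and 0 were called by limma (0 at an unadjusted p of 0.05). Their summed signal was 1532564 to 3072816 in controls and 747932 to 2463647 in exposed thyroids. The list's score was lowest in S539 (-1.37) and S589 (-1.20), the same arrays where Cox6a2 was lowest, and highest in control 4 (1.16). Of 6 brown adipocyte markers, all above background and Ucp1 among them, 6 lay above 0 (median 0.41, but 0.166 without S589 and 0.240 without S588) and 0 were called. Their score was highest in S589 (0.91) and S588 (0.63), the arrays where Cox8b was highest, and their summed signal was 106611 to 170816 in controls and 111477 to 309108 in exposed thyroids. The part of muscle or brown fat in the isoform values was not tested.

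**Figure D3:**
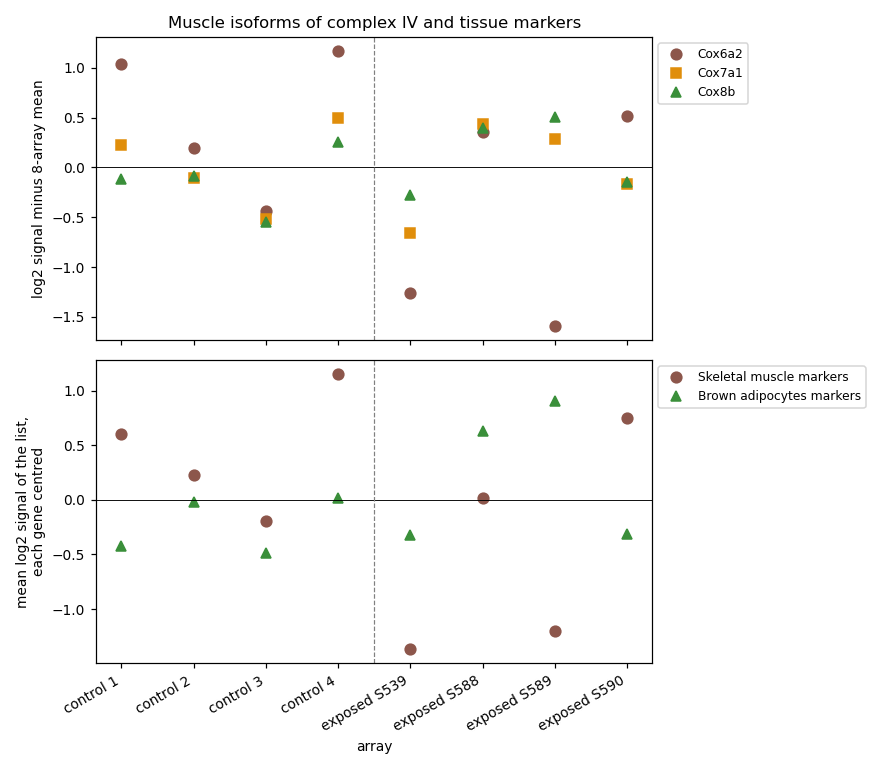
Upper panel, log2 signal of Cox6a2, Cox7a1 and Cox8b on each array minus the gene's 8-array mean; lower panel, mean centred log2 signal of skeletal muscle and brown adipocyte markers. Cox6a2 and the muscle markers are both lowest in S539 and S589, and Cox8b and the brown adipocyte markers both highest in S589 and S588.

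Complex I, the entry point for NADH, held 38 genes, and 0 were called. Their median difference was -0.056, but 0.028 under 75th percentile scaling, 0.044 without control 4 and 0.039 without S539. Under that scaling the median of all probes was 0.165, so signs there are shifted upward. By sign 12 genes lay above and 26 below 0, with a range of -0.23 to 0.19. All 38 intervals lay within 1 log2 unit of 0, and 19 within 0.5. The 7 core subunits, which carry the flavin and iron-sulphur centres or the ubiquinone site, all lay below 0 (median -0.115), and still did without controls 1 and 2 (median -0.215), but 5 of 7 did under 75th percentile scaling and 3 of 7 without control 4 or without S539, and the 31 accessory subunits had a median of -0.046. Ndufs7, a core subunit near the ubiquinone site, gave 16.07, 15.94, 15.90 and 16.47 in controls and 15.71, 15.91, 16.03 and 15.81 in exposed thyroids, a difference of -0.23 (SE 0.17, limma adjusted p = 0.61). Its groups overlapped, as did those of all complex I genes.

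Among accessory subunits, Ndufb8 gave 16.83 to 17.12 in controls and 16.52 to 17.01 in exposed thyroids (-0.22), and Ndufa13 17.16 to 17.41 and 17.14 to 17.31 (-0.07). By brightest probes Ndufa6 had the highest difference, 0.19, with 14.42 to 14.96 in controls and 14.52 to 14.93 in exposed thyroids. Other probes of complex I genes reached 0.30 for Ndufb6 and -0.45 for Ndufb5. Ndufa4, named for complex I and later found in complex IV, was counted here with complex I, as was its paralog. It gave 15.06 to 15.95 in controls and 14.67 to 15.58 in exposed thyroids (-0.12). Ndufa4l2, its paralog known as a hypoxia-responsive gene, gave 10.83 to 11.26 and 10.66 to 11.21 (-0.19). None of these differences passed the test.

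Complex II, succinate dehydrogenase, joins the chain to the citric acid cycle. Sdha, the flavoprotein subunit, gave 14.39, 14.64, 14.73 and 14.89 in controls and 14.46, 14.83, 15.23 and 14.52 in exposed thyroids, a difference of 0.10. Sdhb, the iron-sulphur subunit, differed by 0.05, but by -0.12 at its second probe. Sdhc differed by -0.21 and Sdhd by -0.18, this pair being membrane anchors. The groups of all 4 overlapped, and the lowest adjusted p was 0.63 (limma). The median of -0.06 turned to 0.007 under 75th percentile scaling (against 0.165 over all probes there), 0.06 without control 4 and 0.08 without S539.

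Complex III had a median difference of 0.072 over 9 genes, 5 above and 4 below 0, and 0 were called. The median turned negative without control 3 (-0.06), S588 (-0.009) or S589 (-0.02), and was -0.0002 without controls 1 and 2. Uqcrq, a small subunit, gave 16.62 to 17.10 in controls and 16.69 to 17.24 in exposed thyroids. Its difference of 0.14 was the highest of this complex by brightest probes. The second probe of Uqcrq gave 0.03, and another probe of Uqcr10 gave 0.30. Uqcrh, the hinge protein, differed by 0.09 and Cyc1, the cytochrome c1 subunit, by -0.12. The intervals of all 9 stayed within 1 log2 unit of 0.

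Complex IV without its tissue isoforms had 8 of 9 genes above 0 and a median difference of 0.116, against 0.0077 over all probes, and 0 were called. Ndufa4, at -0.12, was counted with complex I and is not among the 9. The median stayed above 0 under each alternative (0.014 without control 3 to 0.199 without S539). Cox8a, the general form of subunit VIII, gave 17.17, 17.40, 17.43 and 16.97 in controls and 17.70 in S539, 17.66 in S588, 17.93 in S589 and 17.30 in S590. S590 lay within the control range and the other 3 exposed thyroids above it. The difference was 0.41 (SE 0.18, 95% interval -0.02 to 0.83, limma adjusted p = 0.43), and the second probe of the gene gave 0.34. Cox6a1 differed by 0.26, Cox7a2 by 0.06, Cox7b by 0.05 and Cox5a by -0.13, all with overlapping groups. Cox4i1, read outside the rule, differed by 0.17 and Cox4i2 by 0.25, and Cycs, the cytochrome c that feeds this complex, by -0.07, none called.

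Complex V had 10 of 15 genes below 0 and a median difference of -0.122, and 0 were called. The median stayed below 0 under each alternative (-0.198 without control 2 to -0.020 without control 4). Atp5b, the catalytic beta subunit, gave 17.24 to 17.59 in controls and 17.20 to 17.64 in exposed thyroids, a difference of 0.05. Atp5c1, the gamma subunit of the rotating stalk, had the highest difference, 0.17 by its brightest probe, but its second probe gave -0.14. Atp5h, a peripheral stalk subunit, differed by -0.05.

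Atp5g1, one of the genes for the c subunit of the membrane ring, was read by both probes shown above, and they went opposite ways. The RefSeq probe gave 16.32, 16.03, 16.00 and 16.72 in controls and 15.64, 15.75, 15.28 and 16.01 in exposed thyroids, a difference of -0.59 (SE 0.22, limma adjusted p = 0.35, exact permutation p = 0.057). The Ensembl probe gave 13.73, 13.74, 13.98 and 13.29 in controls and 14.29, 14.45, 13.86 and 14.12 in exposed thyroids, a difference of 0.50 (SE 0.20, limma adjusted p = 0.38, exact permutation p = 0.057). The mean of the probes was -0.05. The 8 probes of other names that held the marked run of the RefSeq probe all lay above 0 (median 0.23, 0 called), opposite to the RefSeq probe. The part of the shared run in its value was not tested. The genes for the same subunit Atp5g2 and Atp5g3 differed by -0.03 and -0.29.

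Of the 30 genes with over 1 probe, 12 had probes of both signs, and Atp5g1 was the one among them with an unadjusted p under 0.05. The spread of a gene's probes had a median of 0.116 and reached 1.09. Of 132 member probes, 21 shared a run of 20 bases with probes under other names.

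The 7 assembly and accessory factors had a median difference of -0.0006, and 0 were called. Cox7a2l, a factor in assembling supercomplexes, gave 0.17 by its brightest probe and 0.30 and 0.14 by the others. The probe at 0.30 had groups apart, 14.99 to 15.17 in controls and 15.28 to 15.52 in exposed thyroids (limma adjusted p = 0.39, exact permutation p = 0.0286). Atp5s differed by -0.29 and Atp5sl by -0.0006.

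The arrays differed within groups by more than the groups did from each other. Over the 82 genes outside the tissue isoforms, the mean centred log2 signal was -0.01, -0.07, -0.14 and 0.28 in controls 1 to 4, and -0.22 in S539, 0.08 in S588, 0.17 in S589 and -0.09 in S590. Group means were 0.016 (SD 0.18) and -0.016 (SD 0.18), n = 4 each. Control 4 was highest and S539 lowest. Control 4 was the highest array for complexes I, II, III and V, and S589 for complex IV.

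**Figure D4:**
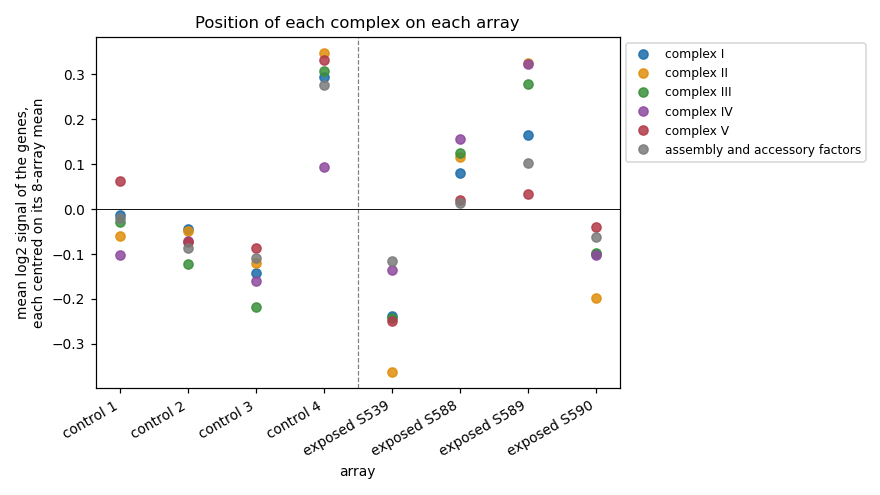
Mean log2 signal of the genes of each complex on each array, each gene centred on its 8-array mean. The complexes shift together by array, up in control 4 and down in S539, and the groups overlap.

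The rest of the pathway was read from lists. Of 24 assembly factors outside the rule (Cox14 and Cox20 were not measured), 0 were called by limma and 1, Sco1, had an unadjusted p under 0.05. Of 13 citric acid cycle genes 0 were called and 0 had such a p. Among 15 regulators of mitochondrial biogenesis 0 were called and Esrra, a nuclear receptor that drives respiratory genes, had a difference of 0.39 (limma adjusted p = 0.38). Among 7 nucleotide carriers and uncoupling proteins 0 were called, with Ucp3 at 0.61 (limma adjusted p = 0.32). Of 15 glycolysis genes 0 were called and 2 (Gapdh at -0.39, Ldhb at 0.34) had an unadjusted p under 0.05. These single genes were named after their values were seen.

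The 13 subunits encoded by mitochondrial DNA, a list added after the files were seen, had 12 above 0 and a median difference of 0.158, against 0.0077 over all probes, and 0 were called. ND6, a complex I subunit transcribed from the opposite strand to most mitochondrial genes, gave the largest value, 1.10 (SE 0.37, limma adjusted p = 0.30, exact permutation p = 0.0286), with groups that did not overlap. The list's median was 0.119 to 0.344 over the scaling and background alternatives and with each array left out. The value of 0.344 came from 75th percentile scaling, where the median of all probes was 0.165.

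Promoters were read for 80 windows of 74 member genes and compared, without a test, with 32851 windows of all genes. The NRF1 site GCGCATGCG stood in 11.2% of member windows and 1.8% of all, and its shorter core TGCGCA, which can overlap it, in 25.0% and 7.8%. The YY1 motif AAGATGGC stood in 15.0% and 2.7%. The ETS (GABP) motif CCGGAAGT stood in 6.2% and 3.9%, the SP1 motif GGGCGG in 42.5% and 35.7%, and CCAAT in 43.8% and 37.4%. The p53 half-site stood in 5.0% and 8.4%. Each was searched on both strands.

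The Cox6b2 window printed above held 1 SP1 match and 3 CCAAT matches, and the Cox6b1 window 3 CCAAT matches. Neither held the NRF1, ETS, YY1 or p53 half-site letters. The Ndufs7 window held AAGATGGC at base 275. A match is a description of letters, not a shown binding site.

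**Figure D5:**
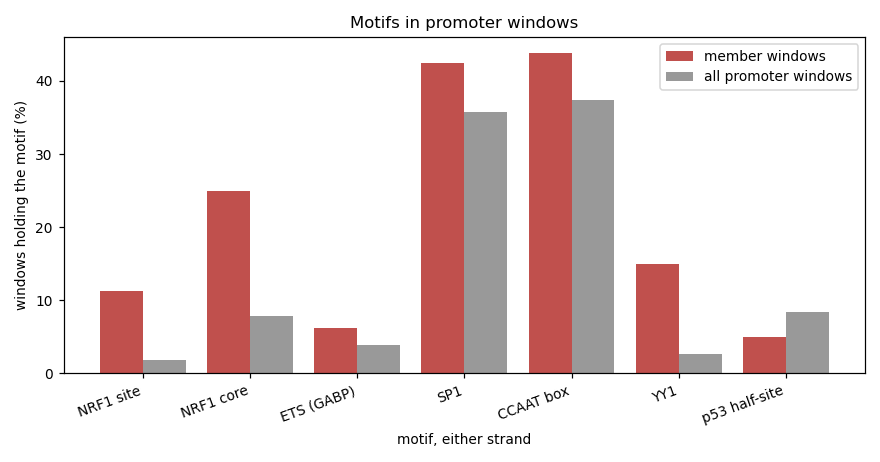
Share of promoter windows (%) that hold each motif on either strand, in 80 member windows (red) and 32851 windows of all genes (grey). The NRF1 and YY1 motifs are over 3 times as frequent among member windows.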

How the data were processed

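Thyroid RNA (4 control, 4 exposed) was labelled with Cy3 and hybridised to one-colour arrays. The authors deposited scanner output of Feature Extraction 10.7.3.1, in which each spot has an intensity with and without background subtraction, and a table of log2 values. Per the methods, arrays were quantile-normalized in limma. The deposited log2 values differed from quantile-normalized log2 median spot signal without background subtraction by at most 0.038.

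Here, log2 of the background-subtracted intensity was quantile-normalized without control spots, and spots were averaged per probe (55681 probes). R 4.3.3 and limma 3.58.1 (lmFit, eBayes) compared exposed with control arrays, with Benjamini-Hochberg adjustment over all probes and a threshold of 0.05. Exact two-sided permutation tests used the 70 assignments of arrays. The procedure was tested on simulated data with 200 changed probes of 55681. It recovered 9.09% of changes of 1 log2 unit, 61.2% of 2 and 94.0% of 4. A gene that was not called is therefore not shown to be unchanged. Probe positions are mm9, as in the array files, and promoters GRCm38.p6. All 88 genes and 118 of 132 probe accessions matched RefSeq.

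The named genes were every called member, in each complex the 2 of highest signal, the largest rise and fall, all of complex II, the tissue isoforms and their partners, and members whose probes differed in sign with an unadjusted p under 0.05. Members and lists were chosen with earlier results of these data known. Cell type lists for adipocytes (6 genes, median log2 difference 0.10) and parathyroid and C cells (4 genes, 0.27) were read as well, and 0 genes were called in each. The number of arrays limits the precision. Alternatives left out each array in turn, averaged a gene's probes, weighted the arrays, removed dim probes, let the variance follow the signal or used the methods' t-test. Others scaled to the 75th percentile, took the deposited values, or corrected the background by normexp (offset 50) or not at all. The background share over probes above background on all 8 arrays, and the fit without controls 1 and 2, were added after seeing the data.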

Additional observations from a re-analysis of the deposited data

Results flagged for a closer look

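In 7 of 64 groups of 4 arrays, 1 array lay far from the other 3 (Dixon's test at the 95% level), where chance gives about 1 in 20, or 3.2. The genes shifted together by array, so the groups were not independent, and 7 against 3.2 is not a test. Control 4 was the high array in 5 of the 7. Atp5h was 16.87 there against 16.46 to 16.53 in the other controls. Ndufa4 was 15.95 against 15.06 to 15.20, and Ndufa6 14.96 against 14.42 to 14.50. Sdhc was 14.67 against 14.19 to 14.23, and Uqcrq 17.10 against 16.62 to 16.66. S539 stood apart for Ndufa4l2, 11.21 against 10.66 to 10.75 in the other exposed thyroids, and for Cox7b2, 4.31 against 2.95 to 3.07, a probe not well above background on any array. No cause was tested.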

How the results depend on the processing

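Cox6b2 was called in all 18 alternatives, with folds of 18.4 to 22.0 and a rank by p of 1 to 3 (limma adjusted p from 4.23e-05 to 0.0308, or 0.00706 by the methods' t-test), and no other named gene was called in any. Of 540 values of 30 named genes under the alternatives, 38 changed sign, with Cox7b2 and Cox8c left out because their probes were at background. The count of genes with groups apart, 2, was 4 under 75th percentile scaling, 4 under normexp, and 2 to 5 with 1 array left out (4 without control 3 or S589, 5 without control 4 or S590), where fewer arrays separate more easily by construction. No share over all probes is given beside these counts. The 75th percentile scaling moved the median of all probes to 0.165. Member and list values for that setting are given as fitted, so they are to be read against 0.165 rather than 0. The probes called on the whole array numbered 89 to 962 over the alternatives, against 435 with all arrays, fewest without controls 1 and 2 and next fewest without S590 (100). No paired analysis was possible because control numbers and exposed animal names are not shared.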
